A study of Homo sapiens with 12 samples.

Results

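The genes of the unfolded protein response and the integrated stress response were followed with and without the death ligand TRAIL in MDA-MB-231, a human cell line from a triple-negative breast cancer. The set held 33 genes fixed by name, and all 33 were measured among the 18417 genes of the arrays. A gene was taken from features that the platform annotation assigned to that gene alone, and where there were several, from the one whose mean over the 12 arrays was highest. Of the 33, 14 belong to the ATF4 branch, 1 is the constitutive regulator of the eIF2 phosphatase (PPP1R15B), 4 are the stress sensors and XBP1, 11 are chaperones and folding factors of the endoplasmic reticulum (ER), and 3 act in ER-associated degradation.

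RNA was hybridised to Affymetrix arrays with a single colour, and each of 4 groups held 3 arrays. TTR cells given TRAIL, untreated TTR cells, parental cells given TRAIL and untreated parental cells made up the groups, where TTR is the derivative of MDA-MB-231 that was treated until it was resistant. TRAIL was used at 100 ng per ml for 2 hours in both lines, and the untreated parental arrays are labelled as the baseline before treatment. The labels do not say whether replicates were separate cultures or whether TTR cells are a clone or a pool, so the p-values cover array-to-array spread and nothing more. An unexplained tag in the sample descriptions takes one form on parental and another on TTR arrays, so the line and whatever the tag means cannot be told apart. Levels and changes below are on the log2 scale, n = 3 arrays per group, the limma fit's standard error (SE) follows ±, and a gene was called at an adjusted p under 0.05 (Benjamini-Hochberg over all 18417 genes).

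As background, misfolded protein in the ER releases the chaperone HSPA5 (BiP) from sensor proteins in the ER membrane. The sensor kinase PERK (gene EIF2AK3) phosphorylates the translation factor eIF2, which slows most protein synthesis but favours translation of the ATF4 mRNA. ATF4 then switches on genes of amino acid supply, the factor CHOP (gene DDIT3) and PPP1R15A, which returns eIF2 to its unphosphorylated state. Other eIF2 kinases answer amino acid shortage, double-stranded RNA or haem shortage and reach the same ATF4 programme, which is then called the integrated stress response. The sensors ATF6 and IRE1 (gene ERN1), the second of which splices the XBP1 mRNA, mainly raise the ER chaperones and the degradation machinery.

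The deposited arrays did not share one distribution. Array medians over all features were 4.38 to 4.40 in TTR cells with TRAIL, 4.24 to 4.30 in untreated TTR cells, 4.58 to 4.61 in parental cells with TRAIL and 4.29 to 4.31 in untreated parental cells, so the 3 parental TRAIL arrays stood apart. With TRAIL in parental cells the median change over all genes was 0.05 as deposited and -0.24 after each array was centred on its median. Counts over the 33 genes and over the gene lists are therefore given also after centring where they differ, and what set these arrays apart was not tested. Of the mesenchymal markers of the line, VIM (11.14 to 11.86), CD44, AXL and CAV1 were high in all 12 arrays, while SPARC (3.85 to 4.75) was low. The luminal markers ESR1, PGR and CDH1 lay at 2.21 to 3.87 and the keratins KRT8 and KRT18 at 10.28 to 11.21. With TRAIL in parental cells 28.9% of all genes were called higher and 29.9% lower (12.6% and 46.7% after centring). Of 6 mesenchymal markers 1 was higher and 4 lower (0 and 4 after centring), and of 8 luminal markers 3 were higher and 0 lower (1 and 3 after centring). Of 5 blood markers 2 were higher and 0 lower (0 and 1 after centring), and of 7 fibroblast and endothelial markers 3 were higher and 1 lower (1 and 2 after centring). The summed level of the blood markers was 5.79 to 5.91 in TTR cells with TRAIL, 5.84 to 5.95 in untreated TTR cells, 6.02 to 6.23 in parental cells with TRAIL and 5.89 to 6.08 in untreated parental cells, and PTPRC, which defines blood cells, lay at 2.07 to 2.54. The part of such markers in the results was not tested. In a bulk measurement fewer cells of a state and less RNA per cell cannot be told apart.

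The promoters of many of these genes carry short elements that are textbook sites of the pathway. They are shown because the calls of genes that share an element are counted below. Windows from 250 bases before to 50 bases after the start were taken from RefSeq (GRCh38.p14) for 32 of the 33 genes and searched on both strands. The ER stress element, CCAAT and CCACG with 9 bases between them, was in the windows of 7 of these 32 genes (21.9%), against 19 of the 14237 tested genes with a window (0.133%). It was found in 6 of the 11 ER chaperone genes (HSPA5, HSP90B1, CALR, CANX, PDIA6 and CRELD2) and in XBP1. The related element, ATTGG and CCACG with 1 base between them, was found in SDF2L1 and HERPUD1, and in 0.119% of the tested genes. The element TGATGNAA, to which ATF4 and C/EBP proteins bind together, was in 5 of the 32 genes (15.6%), against 3.59% of the tested genes, and these were ASNS, CHAC1, SLC3A2, PPP1R15B and HERPUD1. The UPR element TGACGTGG was in the windows of 0 of the 32 genes and in 1.12% of the tested genes. A match describes the letters only and not a bound site. In the stretches below capitals mark the fixed letters of the element, and each stretch is written in the direction of the element, on the strand named.
HSPA5, chr9:125241376-125241424, minus strand: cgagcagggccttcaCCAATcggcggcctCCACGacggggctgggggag
CRELD2, chr22:49918539-49918587, minus strand: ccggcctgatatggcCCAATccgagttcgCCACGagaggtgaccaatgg
CANX, chr5:179698763-179698811, plus strand: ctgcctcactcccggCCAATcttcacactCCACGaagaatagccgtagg
PDIA6, chr2:10812838-10812886, minus strand: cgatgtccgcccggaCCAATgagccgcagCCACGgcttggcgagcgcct
XBP1, chr22:28800588-28800636, minus strand: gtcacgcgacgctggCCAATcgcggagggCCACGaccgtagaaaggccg
SDF2L1, chr22:21642099-21642139, minus strand: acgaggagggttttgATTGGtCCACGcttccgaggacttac
HERPUD1, chr16:56932010-56932050, plus strand: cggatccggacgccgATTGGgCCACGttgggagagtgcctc
CHAC1, chr15:40953247-40953284, minus strand: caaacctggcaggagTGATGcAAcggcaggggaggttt
PPP1R15B, chr1:204412022-204412059, minus strand: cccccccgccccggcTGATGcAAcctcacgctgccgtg
ASNS, chr7:97872454-97872491, minus strand: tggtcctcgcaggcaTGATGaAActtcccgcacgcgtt

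TRAIL changed most of these genes in parental cells and few in TTR cells. In TTR cells 6 of 33 genes were called with TRAIL in a fit that does not pair arrays, 4 higher and 2 lower. There 5.82% of all genes were called (3.27% higher and 2.55% lower). Of the genes whose mean level was at least that of the lowest of the 33, 10.4% were called in TTR cells (5.56% higher and 4.85% lower). In parental cells 30 of 33 were called, 13 higher and 17 lower, where 58.8% of all genes were called (28.9% higher and 29.9% lower) and 79.1% of the 8004 genes whose mean level was at least that of the lowest of the 33. At least 2-fold, 2 were higher and 0 lower in TTR cells (all genes 0.673% and 0%), and 7 were higher and 10 lower in parental cells (all genes 4.21% and 13.2%). Arrays with and without TRAIL did not overlap for 21 of the 33 in TTR cells and 30 in parental cells, against 27.5% and 62.2% of all genes. At an unadjusted p under 0.05, 17 of the 33 passed in TTR cells, and the share of all genes at that p is not given here. After centring, 4 were higher and 7 lower in TTR cells, where 2.43% and 10.6% of all genes were, and 11 were higher and 20 lower in parental cells, where 12.6% and 46.7% of all genes were higher and lower. The median change of the 33 was 0.01 in TTR cells, against -0.01 over all genes, and -0.22 in parental cells, against 0.05 over all genes.

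**Figure D1:**
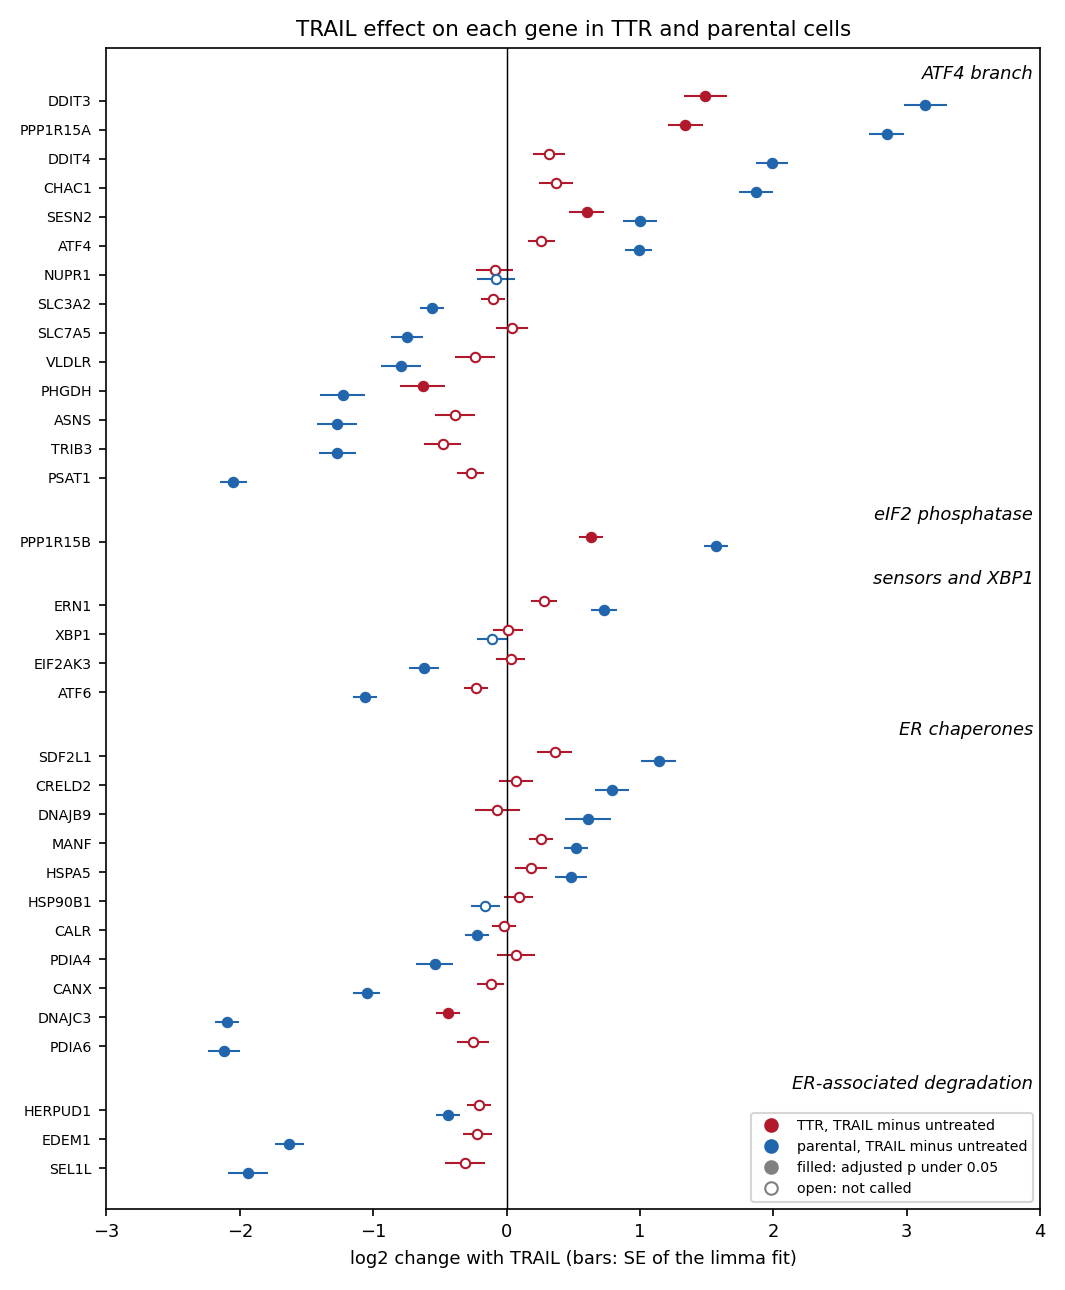
Change in log2 level with TRAIL for each of the 33 genes, in TTR cells (red) and parental cells (blue), with SE bars from the limma fit and genes ordered within each role by the parental change; filled points were called. In parental cells the changes span -2.12 (PDIA6) to 3.14 (DDIT3), and in TTR cells -0.63 (PHGDH) to 1.49 (DDIT3).

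ATF4 and CHOP, the transcription factors at the head of the branch, rose with TRAIL in parental cells, and CHOP rose in both lines. DDIT3 had log2 levels of 8.55, 9.10 and 8.91 in TTR cells with TRAIL, 7.05, 7.51 and 7.53 in untreated TTR cells, 10.10, 10.35 and 10.42 in parental cells with TRAIL, and 7.02, 7.43 and 7.01 in untreated parental cells. The arrays with TRAIL lay above all untreated arrays in each line. Its change was 1.49 ± 0.16 in TTR cells (2.80-fold, adjusted p = 2.62e-05) and 3.14 ± 0.16 in parental cells (8.80-fold, adjusted p = 1.77e-10). DDIT3 encodes CHOP, a factor linked to cell death under prolonged stress, and its parental change was the largest in size among the 33 genes on the features used. The second feature of ATF4, which was not used, changed by 3.49 in parental cells.

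ATF4 itself was measured by 2 features, which differed in the size of the change. The feature used had log2 levels of 9.84, 9.93 and 9.86 in TTR cells with TRAIL, 9.41, 9.71 and 9.73 in untreated TTR cells, 10.67, 10.80 and 10.70 in parental cells with TRAIL, and 9.70, 9.83 and 9.66 in untreated parental cells. It changed by 0.26 ± 0.10 in TTR cells (adjusted p = 0.149), where the groups did not overlap, and by 0.99 ± 0.10 in parental cells (adjusted p = 3.41e-07). The second feature of ATF4 had 9.19, 9.36 and 9.30 in TTR cells with TRAIL, 7.93, 8.06 and 8.16 in untreated TTR cells, 11.46, 11.68 and 11.58 in parental cells with TRAIL, and 8.02, 8.10 and 8.13 in untreated parental cells. On that feature all arrays with TRAIL lay above all untreated arrays. With every one of the 33252 features tested, its change was 1.23 ± 0.09 in TTR cells (adjusted p = 9.71e-06) and 3.49 ± 0.09 in parental cells (adjusted p = 1.5e-10). The TTR result for ATF4 therefore depends on the feature, and with the mean of its features ATF4 was called in TTR cells (adjusted p = 0.000162).

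NUPR1, a small stress-induced chromatin protein, did not follow these factors. It had 5.14, 5.10 and 5.28 in TTR cells with TRAIL, 5.14, 5.05 and 5.60 in untreated TTR cells, 6.05, 6.29 and 6.27 in parental cells with TRAIL, and 6.05, 6.42 and 6.40 in untreated parental cells. The groups with and without TRAIL overlapped in each line, with changes of -0.09 ± 0.14 in TTR cells (adjusted p = 0.794) and -0.08 ± 0.14 in parental cells (adjusted p = 0.63). After centring the parental change of NUPR1 was -0.38 and was called (adjusted p = 0.0252). All 6 TTR arrays lay below all 6 parental arrays.

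Both regulators of the eIF2 phosphatase rose in both lines. PPP1R15A (GADD34), the stress-induced subunit that brings phosphatase 1 to eIF2, had 9.51, 9.88 and 9.42 in TTR cells with TRAIL, 8.20, 8.38 and 8.20 in untreated TTR cells, 11.10, 11.06 and 10.88 in parental cells with TRAIL, and 8.07, 8.39 and 8.04 in untreated parental cells. PPP1R15B, its constitutive counterpart, had 9.73, 9.72 and 9.63 in TTR cells with TRAIL, 9.12, 9.07 and 9.01 in untreated TTR cells, 10.72, 10.88 and 10.78 in parental cells with TRAIL, and 9.24, 9.20 and 9.23 in untreated parental cells. For both genes the TRAIL arrays of TTR cells lay above every untreated array and below every parental TRAIL array. PPP1R15A changed by 1.34 ± 0.13 in TTR cells (2.53-fold, adjusted p = 5.53e-06) and by 2.85 ± 0.13 in parental cells (7.20-fold, adjusted p = 4.08e-11). PPP1R15B changed by 0.63 ± 0.09 in TTR cells (1.54-fold, adjusted p = 0.000324) and by 1.57 ± 0.09 in parental cells (2.97-fold, adjusted p = 3.62e-10).

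Stress effectors of the branch split in direction. CHAC1, an enzyme that breaks down glutathione, had 6.96, 6.95 and 6.82 in TTR cells with TRAIL, 6.41, 6.77 and 6.46 in untreated TTR cells, 8.53, 8.73 and 8.25 in parental cells with TRAIL, and 6.63, 6.78 and 6.49 in untreated parental cells. DDIT4 (REDD1), an inhibitor of mTORC1, had 8.35, 8.63 and 8.41 in TTR cells with TRAIL, 7.96, 8.07 and 8.41 in untreated TTR cells, 10.07, 10.29 and 10.07 in parental cells with TRAIL, and 8.20, 8.22 and 8.04 in untreated parental cells. For both, the 3 parental TRAIL arrays lay above all 9 others. CHAC1 rose by 1.87 ± 0.13 in parental cells (adjusted p = 3.78e-09) and changed by 0.37 ± 0.13 in TTR cells (adjusted p = 0.114, called with the replicate block described below). DDIT4 rose by 1.99 ± 0.12 in parental cells (adjusted p = 1.15e-09) and changed by 0.32 ± 0.12 in TTR cells, where its groups overlapped (adjusted p = 0.147). With array weights the TTR change of DDIT4 was called (adjusted p = 0.0207). SESN2, a sestrin that also restrains mTORC1, rose by 0.60 ± 0.13 in TTR cells (adjusted p = 0.0149) and by 1.00 ± 0.13 in parental cells (adjusted p = 6.17e-06). The TTR call of SESN2 was lost without TTR TRAIL array 1 or 2 (adjusted p = 0.0503 and 0.1). TRIB3, a pseudokinase that feeds back on ATF4, fell by 1.27 ± 0.14 in parental cells (adjusted p = 1.11e-06) and stood at -0.48 ± 0.14 in TTR cells (adjusted p = 0.0628). With the replicate block the TTR change of TRIB3 was called (adjusted p = 0.0253 over all arrays and 0.00989 over the TTR arrays), and it was called in 10 alternatives in all. VLDLR, a lipoprotein receptor, fell by 0.79 ± 0.15 in parental cells (adjusted p = 0.000183), with -0.24 ± 0.15 in TTR cells (adjusted p = 0.377).

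The amino acid genes of the branch fell with TRAIL in parental cells, opposite to DDIT3 and PPP1R15A. PSAT1, a serine synthesis enzyme, had 8.77, 8.75 and 8.66 in TTR cells with TRAIL, 8.97, 9.07 and 8.94 in untreated TTR cells, 7.24, 7.28 and 7.28 in parental cells with TRAIL, and 9.13, 9.52 and 9.31 in untreated parental cells. The parental TRAIL arrays lay far below the other 9. PSAT1 fell by 2.05 ± 0.10 in parental cells (4.15-fold, adjusted p = 1.2e-10), with -0.27 ± 0.10 in TTR cells (adjusted p = 0.134). PHGDH, which catalyses the first step of serine synthesis, had 6.67, 6.69 and 6.38 in TTR cells with TRAIL, 7.12, 7.27 and 7.24 in untreated TTR cells, 6.23, 6.69 and 6.76 in parental cells with TRAIL, and 7.44, 8.20 and 7.74 in untreated parental cells. TRAIL arrays lay below untreated arrays in each line. PHGDH fell by 0.63 ± 0.17 in TTR cells (adjusted p = 0.0408) and fell by 1.23 ± 0.17 in parental cells (adjusted p = 9.78e-06), and the TTR call was lost in 8 alternatives.

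ASNS, asparagine synthetase, fell by 1.27 ± 0.15 in parental cells (adjusted p = 2.14e-06), with -0.39 ± 0.15 in TTR cells (adjusted p = 0.152). SLC3A2 and SLC7A5, the chains of a large neutral amino acid transporter, fell in parental cells by 0.56 ± 0.09 (adjusted p = 3.45e-05) and 0.75 ± 0.12 (adjusted p = 3e-05). In TTR cells their groups overlapped, with changes of -0.10 ± 0.09 and 0.04 ± 0.12 (adjusted p = 0.587 and 0.907). After centring ASNS and PSAT1 were called lower in TTR cells (adjusted p = 0.043 and 0.0283). With the replicate block over the TTR arrays alone ASNS was also called lower (adjusted p = 0.028). Of the 14 ATF4-branch genes, then, 3 rose and 1 fell in TTR cells, where 3.27% of all genes rose and 2.55% fell, and 6 rose and 7 fell in parental cells, where 28.9% rose and 29.9% fell. After centring the counts were 3 higher and 4 lower in TTR cells and 6 higher and 8 lower in parental cells.

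**Figure D2:**
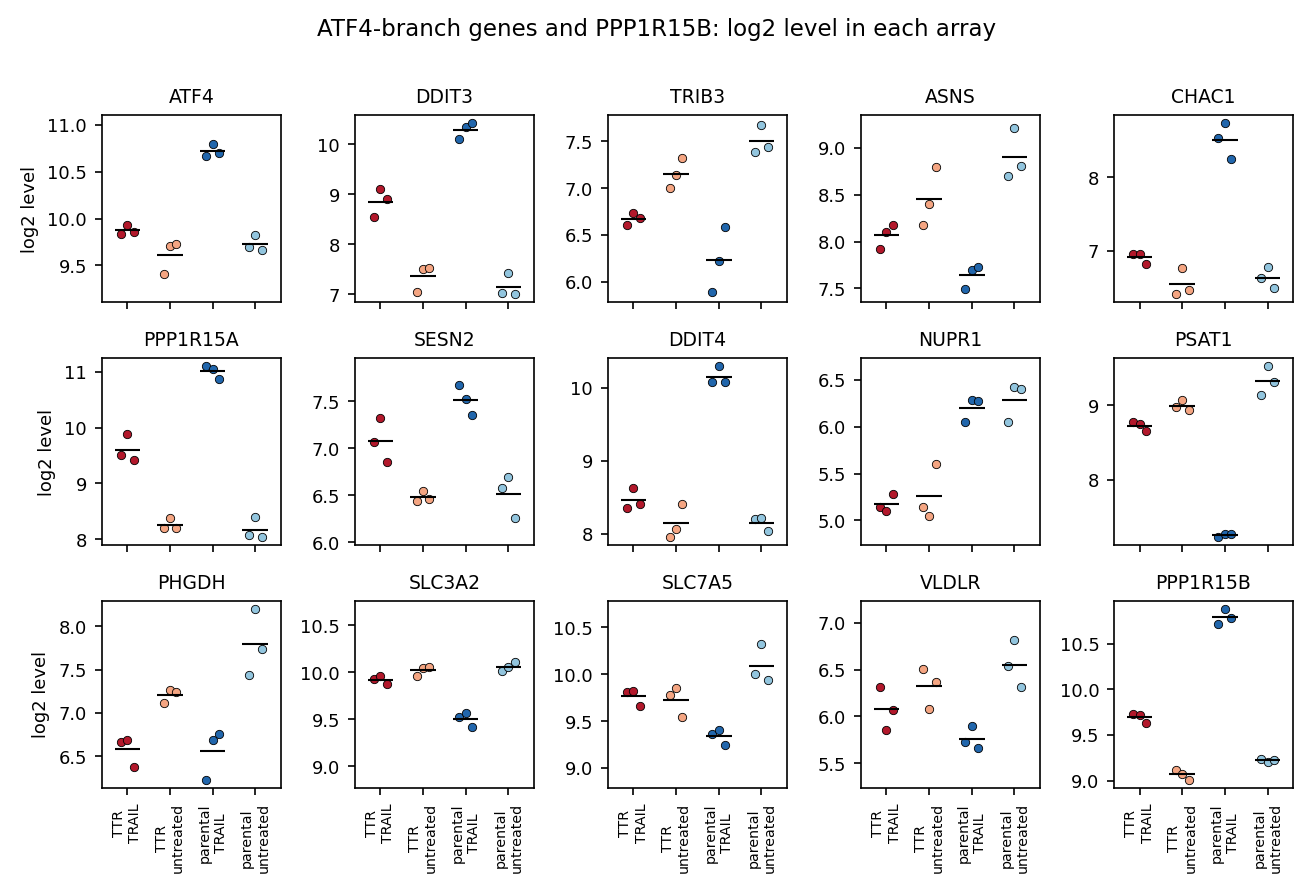
Log2 level of the 14 ATF4-branch genes and PPP1R15B in each array (points) with the group mean (line), for TTR cells with TRAIL, untreated TTR cells, parental cells with TRAIL and untreated parental cells; each panel has its own axis. The parental TRAIL arrays are highest for DDIT3 (10.10 to 10.42) and lowest for PSAT1 (7.24 to 7.28).

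ATF6 and EIF2AK3 fell and the IRE1 gene rose in parental cells. ERN1 (IRE1) had 6.25, 6.12 and 5.99 in TTR cells with TRAIL, 5.85, 5.82 and 5.86 in untreated TTR cells, 6.72, 6.75 and 6.53 in parental cells with TRAIL, and 5.85, 6.06 and 5.89 in untreated parental cells. ATF6 had 9.52, 9.52 and 9.40 in TTR cells with TRAIL, 9.81, 9.74 and 9.58 in untreated TTR cells, 8.67, 8.69 and 8.72 in parental cells with TRAIL, and 9.68, 9.86 and 9.71 in untreated parental cells. EIF2AK3 (PERK) had 5.90, 5.93 and 5.70 in TTR cells with TRAIL, 5.80, 5.74 and 5.88 in untreated TTR cells, 5.23, 5.20 and 4.93 in parental cells with TRAIL, and 5.66, 5.86 and 5.71 in untreated parental cells. For all 3 sensors the parental TRAIL arrays lay outside the range of the other 9. The parental changes were 0.73 ± 0.10 for ERN1 (adjusted p = 9.7e-06), -1.06 ± 0.09 for ATF6 (adjusted p = 6.24e-08) and -0.62 ± 0.11 for EIF2AK3 (adjusted p = 9.76e-05). None of the 3 was called in TTR cells, with 0.28 ± 0.10, -0.23 ± 0.09 and 0.03 ± 0.11 in the same order. The TTR groups of ERN1 and ATF6 did not overlap. ATF6 was called lower there after centring (adjusted p = 0.0337), and ERN1 higher with array weights (adjusted p = 0.0234).

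XBP1, the factor that IRE1 activates by splicing, had 9.50, 9.52 and 9.32 in TTR cells with TRAIL, 9.33, 9.46 and 9.54 in untreated TTR cells, 9.69, 9.24 and 9.45 in parental cells with TRAIL, and 9.49, 9.61 and 9.60 in untreated parental cells. All 4 groups overlapped, and the changes were 0.01 ± 0.11 in TTR cells (adjusted p = 0.985) and -0.11 ± 0.11 in parental cells (adjusted p = 0.449). After centring XBP1 was called lower in parental cells (adjusted p = 0.00839). The feature gives a total level and cannot tell spliced from unspliced XBP1.

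Of the 11 ER chaperones 5 were called higher and 5 lower in parental cells, where 28.9% of all genes were higher and 29.9% lower. In TTR cells 1 of the 11 was called, where 5.82% of all genes were. SDF2L1, an ER-resident partner of the HSP40 co-chaperones, had 5.92, 5.90 and 5.97 in TTR cells with TRAIL, 5.50, 5.51 and 5.69 in untreated TTR cells, 6.55, 6.92 and 6.44 in parental cells with TRAIL, and 5.29, 5.63 and 5.57 in untreated parental cells. CRELD2, an ER-resident folding factor, had 5.43, 5.73 and 5.47 in TTR cells with TRAIL, 5.22, 5.64 and 5.55 in untreated TTR cells, 6.31, 6.37 and 6.25 in parental cells with TRAIL, and 5.63, 5.62 and 5.30 in untreated parental cells. In both the parental TRAIL arrays were the highest. SDF2L1 rose by 1.14 ± 0.13 in parental cells (2.21-fold, adjusted p = 7.19e-07), with 0.36 ± 0.13 in TTR cells (adjusted p = 0.105). Its TTR change was called in 5 alternatives, among them the replicate block over the TTR arrays alone (adjusted p = 0.0202). CRELD2 rose by 0.79 ± 0.13 in parental cells (adjusted p = 4.73e-05), with 0.07 ± 0.13 in TTR cells, where its groups overlapped (adjusted p = 0.82).

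The other 3 that rose in parental cells did so by less. DNAJB9, an HSP40 co-chaperone, rose by 0.61 ± 0.17 (adjusted p = 0.00576), MANF, a secreted ER stress protein, by 0.52 ± 0.09 (adjusted p = 8.13e-05), and HSPA5, the central HSP70 chaperone of the ER, by 0.48 ± 0.12 (adjusted p = 0.00245). The calls of DNAJB9 and HSPA5 were lost after centring (adjusted p = 0.115 and 0.171), while HSP90B1 was then called lower, so that 3 chaperones were higher and 6 lower. Over all genes 12.6% were higher and 46.7% lower in parental cells after centring. In TTR cells DNAJB9 stood at -0.07 ± 0.17 and MANF at 0.26 ± 0.09 (adjusted p = 0.879 and 0.096). With array weights the TTR change of MANF was called (adjusted p = 0.0291). HSPA5 had 10.79, 10.86 and 10.79 in TTR cells with TRAIL, 10.66, 10.62 and 10.62 in untreated TTR cells, 10.89, 11.30 and 11.12 in parental cells with TRAIL, and 10.37, 10.80 and 10.68 in untreated parental cells. The TRAIL arrays lay above the untreated arrays in each line, and the TTR change of 0.18 ± 0.12 was not called (adjusted p = 0.443).

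Among the chaperones that fell, DNAJC3 and PDIA6 changed most. DNAJC3 (p58IPK), an HSP40 co-chaperone also known as an inhibitor of eIF2 kinases, had 6.84, 6.82 and 6.71 in TTR cells with TRAIL, 7.26, 7.17 and 7.25 in untreated TTR cells, 4.93, 4.73 and 4.83 in parental cells with TRAIL, and 6.99, 6.81 and 7.00 in untreated parental cells. PDIA6, a protein disulfide isomerase, had 9.72, 9.71 and 9.57 in TTR cells with TRAIL, 10.03, 9.81 and 9.93 in untreated TTR cells, 8.26, 7.71 and 8.05 in parental cells with TRAIL, and 10.11, 10.19 and 10.07 in untreated parental cells. CANX (calnexin), a lectin chaperone of glycoproteins, had 11.73, 11.69 and 11.78 in TTR cells with TRAIL, 11.90, 11.81 and 11.86 in untreated TTR cells, 10.79, 10.43 and 10.81 in parental cells with TRAIL, and 11.69, 11.75 and 11.75 in untreated parental cells. The parental TRAIL arrays of all 3 genes lay below the other 9. DNAJC3 fell by 0.44 ± 0.09 in TTR cells (adjusted p = 0.013, and 0.0578 without TTR TRAIL array 3) and fell by 2.10 ± 0.09 in parental cells (4.30-fold, adjusted p = 3.99e-11). PDIA6 fell by 2.12 ± 0.12 in parental cells (4.34-fold, adjusted p = 4.97e-10), with -0.25 ± 0.12 in TTR cells (adjusted p = 0.249). CANX fell by 1.05 ± 0.10 in parental cells (adjusted p = 1.95e-07), with -0.12 ± 0.10 in TTR cells (adjusted p = 0.57).

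PDIA4, another disulfide isomerase, had 8.95, 8.86 and 8.55 in TTR cells with TRAIL, 8.75, 8.72 and 8.67 in untreated TTR cells, 8.65, 8.21 and 8.17 in parental cells with TRAIL, and 8.79, 9.10 and 8.77 in untreated parental cells. It fell by 0.54 ± 0.14 in parental cells (adjusted p = 0.00287), a call that further quantile normalization removed (adjusted p = 0.081). CALR (calreticulin), the soluble relative of calnexin, stood at -0.22 ± 0.09 in parental cells (adjusted p = 0.0392), and its call was lost in 11 alternatives. HSP90B1 (GRP94), the HSP90 of the ER, was not called in either line as deposited, with 0.09 ± 0.11 in TTR cells (adjusted p = 0.718) and -0.16 ± 0.11 in parental cells (adjusted p = 0.209). After centring its parental change was -0.46 and was called (adjusted p = 0.00213).

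All 3 genes of ER-associated degradation, which returns misfolded proteins to the cytosol for the proteasome, were called lower in parental cells. There 29.9% of all genes were called lower (46.7% after centring). Among genes at or above the lowest gene of the set in mean level, 57.2% were called lower. Whether 3 of 3 exceeds these shares was not tested. SEL1L, the scaffold of the HRD1 ubiquitin ligase, had 7.83, 7.53 and 7.83 in TTR cells with TRAIL, 8.00, 7.86 and 8.25 in untreated TTR cells, 5.83, 5.77 and 6.25 in parental cells with TRAIL, and 7.62, 8.11 and 7.95 in untreated parental cells. EDEM1, which directs misfolded glycoproteins to degradation, had 6.68, 6.50 and 6.34 in TTR cells with TRAIL, 6.75, 6.70 and 6.74 in untreated TTR cells, 5.28, 5.40 and 5.49 in parental cells with TRAIL, and 7.09, 7.09 and 6.89 in untreated parental cells. HERPUD1, an ER membrane protein of the same complex, had 8.27, 8.36 and 8.31 in TTR cells with TRAIL, 8.54, 8.53 and 8.49 in untreated TTR cells, 8.06, 8.00 and 8.11 in parental cells with TRAIL, and 8.43, 8.61 and 8.46 in untreated parental cells. TRAIL arrays lay below untreated arrays for all 3 genes in each line. In parental cells SEL1L fell by 1.94 ± 0.15 (3.84-fold, adjusted p = 1.39e-08), EDEM1 by 1.63 ± 0.11 (3.10-fold, adjusted p = 1.72e-09) and HERPUD1 by 0.44 ± 0.09 (adjusted p = 0.000383, and 0.114 after further quantile normalization). In TTR cells the values were -0.31 ± 0.15, -0.22 ± 0.11 and -0.21 ± 0.09 in the same order, and none was called (adjusted p = 0.271, 0.244 and 0.18). HERPUD1 was called lower there after centring (adjusted p = 0.0339), and SEL1L with the replicate block over the TTR arrays alone (adjusted p = 0.0432).

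**Figure D3:**
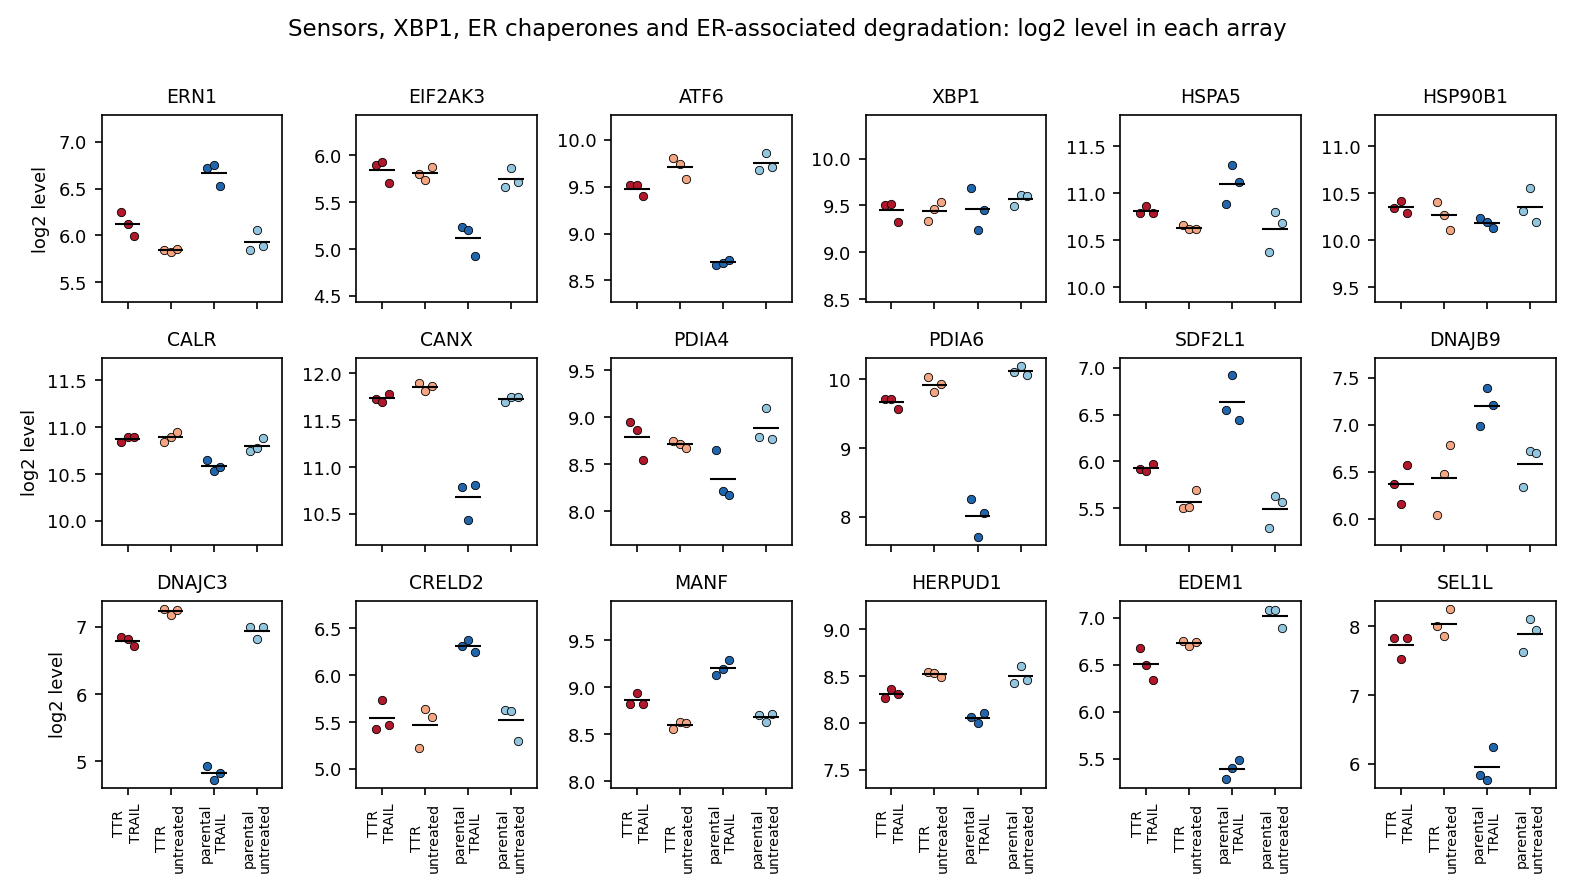
Log2 level of the sensors, XBP1, the 11 ER chaperones and the 3 genes of ER-associated degradation in each array (points) with the group mean (line), for TTR cells with TRAIL, untreated TTR cells, parental cells with TRAIL and untreated parental cells; each panel has its own axis. The parental TRAIL arrays are below the rest for DNAJC3 (4.73 to 4.93), PDIA6 (7.71 to 8.26) and SEL1L (5.77 to 6.25), and above the rest for SDF2L1 (6.44 to 6.92).

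The ATF4 branch was set against the ER chaperones by taking, in each array, the mean log2 level of the 14 ATF4-branch genes minus that of the 11 chaperones. Features of different genes cannot be compared in level, so only the change of this value between groups is read, and it has no test. It averaged -0.72 ± 0.043 in TTR cells with TRAIL, -0.86 ± 0.055 in untreated TTR cells, -0.13 ± 0.096 in parental cells with TRAIL and -0.64 ± 0.103 in untreated parental cells (SD, n = 3 each). In TTR cells the value was -0.74, -0.67 and -0.74 with TRAIL, against -0.93, -0.83 and -0.83 without. In parental cells it was -0.23, -0.04 and -0.11 with TRAIL, against -0.67, -0.53 and -0.73 without. The groups with and without TRAIL did not overlap in either line.

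The change with TRAIL was 0.15 in TTR cells and 0.51 in parental cells, against a pooled SD between arrays of 0.079. In TTR cells it was made up of 0.16 for the ATF4 branch and 0.01 for the chaperones, and in parental cells of 0.27 and -0.24. These means rest on few genes. Without DDIT3 the change was 0.04 in TTR cells and 0.29 in parental cells, without PPP1R15A it was 0.05 and 0.32, and without PSAT1 it was 0.18 and 0.69. With the median over genes in each array in place of the mean, the change was 0.34 in TTR cells and 0.70 in parental cells. The difference between the median changes of the gene groups had the opposite sign, -0.10 in TTR cells and -0.16 in parental cells. In parental cells 6 ATF4-branch genes rose and 7 fell, and the rises of DDIT3 and PPP1R15A were the largest on the features used.

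**Figure D4:**
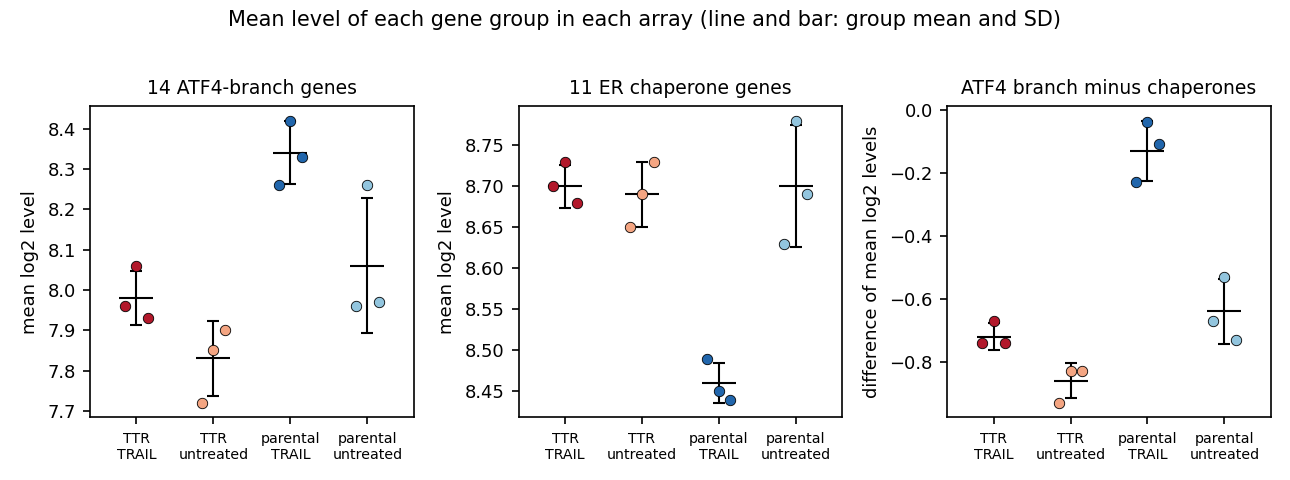
Mean log2 level of the 14 ATF4-branch genes (left), of the 11 ER chaperone genes (middle) and the difference between them (right) in each array, with the group mean and SD; each panel has its own axis. The difference is highest in the parental TRAIL arrays (-0.23 to -0.04) and lowest in the untreated TTR arrays (-0.93 to -0.83).

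Without TRAIL, 1 of the 33 genes was called between untreated TTR and untreated parental cells, where 7.11% of all genes were called (3.64% higher and 3.47% lower). Of the genes at or above the lowest of the 33 in mean level, 11.4% were called. The gene called among the 33 was NUPR1, at -1.03 ± 0.14 (2.04-fold lower in TTR cells, adjusted p = 0.000247), with the levels given above. PHGDH stood at -0.58 ± 0.17 with groups that did not overlap (adjusted p = 0.0509), and it was called in 9 alternatives. PSAT1 stood at -0.33 ± 0.10 (adjusted p = 0.0689). ASNS stood at -0.45 ± 0.15, SLC7A5 at -0.36 ± 0.12 and TRIB3 at -0.35 ± 0.14 (adjusted p = 0.0945, 0.072 and 0.196). ASNS was called in 3 alternatives and SLC7A5 in 2. On the positive side of the ATF4 branch were DDIT3, at 0.21 ± 0.16, and PPP1R15A, at 0.10 ± 0.13 (adjusted p = 0.567 and 0.771). The largest positive difference was DNAJC3, at 0.29 ± 0.09 (adjusted p = 0.0766). The groups did not overlap for 12 of 33 genes, against 24.6% of all genes. With the replicate number as a block, 4 of the 33 were called over all arrays and 3 in a fit of these groups alone. The shares of all genes called with the block are not given here. The median difference over the 33 was -0.09, against -0.01 over all genes, and the value for the ATF4 branch minus the chaperones was -0.22 by means, -0.04 by the median over genes in each array and -0.12 by the difference of the median differences.

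For TRAIL in TTR cells, 8 of the 33 genes were called with the replicate number as a block over all arrays, against 6 without it. In a fit of the TTR arrays alone, 11 were called with the block, 6 higher and 5 lower, against 8 without it. Arrays with the same number deviated together in that comparison. The shares of all genes called with the block, or in the fit of the TTR arrays alone, are not given here. These counts therefore do not show whether the 33 gained more calls than other genes. Quantile normalization left 4 higher and 1 lower, where 2.44% and 2.75% of all genes were.

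Under TRAIL most of these genes were called between the lines. Of the 33, 28 were called between TTR and parental cells with TRAIL, 15 higher and 13 lower in TTR cells, where 54.4% of all genes were called (28% higher and 26.4% lower) and 74.8% of the genes at or above the lowest of the 33 in mean level. The groups did not overlap for 29 of the 33, against 60.2% of all genes. The split was 17 higher and 11 lower after centring, where 37.1% and 13% of all genes were, and 10 higher and 14 lower after further quantile normalization, where 27.8% and 19.4% were. DNAJC3 was 1.96 ± 0.09 higher in TTR cells (3.89-fold, adjusted p = 3.42e-10), SEL1L 1.78 ± 0.15 (3.44-fold, adjusted p = 6.08e-08), PDIA6 1.66 ± 0.12 (3.17-fold, adjusted p = 1.18e-08) and PSAT1 1.45 ± 0.10 (2.74-fold, adjusted p = 8.3e-09). In the other direction DDIT4 stood at -1.68 ± 0.12 (adjusted p = 1.3e-08), CHAC1 at -1.59 ± 0.13 (adjusted p = 3.98e-08), DDIT3 at -1.44 ± 0.16 (adjusted p = 1.35e-06) and PPP1R15A at -1.41 ± 0.13 (adjusted p = 1.2e-07). NUPR1 stood at -1.03 ± 0.14 (adjusted p = 1.03e-05), against -1.03 without TRAIL. Both line comparisons and both TRAIL comparisons share arrays with one another, so their values are given side by side and not as separate evidence.

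The TRAIL effect itself differed between the lines for 24 of the 33 genes, 14 higher and 10 lower in TTR minus parental, where 37.2% of all genes were called (22.9% higher and 14.3% lower) and 60.5% of the genes at or above the lowest of the 33 in mean level. After centring 18 were higher and 8 lower, where 29.4% and 6.92% of all genes were, and after further quantile normalization 11 and 12, where 21.4% and 12.5% were. All 10 with a lower TRAIL effect in TTR cells had risen in parental cells, and all 14 with a higher one had fallen there. The parental change enters this difference with a minus sign, so where TTR changes are small this split follows from the arithmetic. It is not a separate result. By size, the TRAIL change was smaller in TTR than in parental cells for 32 of 33 genes (97%), against 83.5% of all genes. The median size of the change over the 33 was 0.25 in TTR cells and 1.00 in parental cells, against 0.12 and 0.37 over all genes. These values over all genes include genes below the lowest of the 33 in mean level. They were not taken for the 8004 genes at or above it. The sign of the change was the same in both lines for 27 of the 33.

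The differences in TRAIL effect were largest for PDIA6, at 1.86 ± 0.17 (adjusted p = 1.15e-06), PSAT1, at 1.78 ± 0.14 (adjusted p = 4.13e-07), and DNAJC3, at 1.67 ± 0.13 (adjusted p = 3.96e-07), on the side of genes that had fallen. On the side of genes that had risen they were largest for DDIT4, at -1.67 ± 0.18 (adjusted p = 3.01e-06), and DDIT3, at -1.65 ± 0.23 (adjusted p = 3.37e-05). SESN2 rose in both lines and its difference of -0.40 ± 0.19 was not called (adjusted p = 0.107). It was called with the replicate block (adjusted p = 0.0428), after further quantile normalization (-0.65, adjusted p = 0.00856) and without TTR TRAIL array 2 (adjusted p = 0.0432). The second feature of ATF4 gave a difference of -2.26 ± 0.13 over all features (adjusted p = 2.08e-06), against -0.73 ± 0.14 for the feature used (adjusted p = 0.000783).

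Other genes of the same pathways were counted on the same tests. With TRAIL 3.27% of all genes rose and 2.55% fell in TTR cells, and 28.9% rose and 29.9% fell in parental cells, where 57.2% of the genes at or above the lowest of the 33 in mean level fell. After centring 2.43% of all genes rose and 10.6% fell in TTR cells, and 12.6% rose and 46.7% fell in parental cells. Of 22 further ATF4 target genes, 1 rose and 0 fell in TTR cells (1 and 5 after centring), while 4 rose and 12 fell in parental cells (3 and 14 after centring). CEBPB, a factor that pairs with ATF4, rose by 0.63 ± 0.11 in TTR cells (adjusted p = 0.00217) and by 1.99 ± 0.11 in parental cells (adjusted p = 2.62e-10). MTHFD2, a mitochondrial folate enzyme, fell by 1.51 ± 0.10 in parental cells (adjusted p = 3.41e-09), with -0.34 in TTR cells (adjusted p = 0.0702). ALDH18A1, an enzyme of proline synthesis, fell by 1.78 ± 0.12 in parental cells (adjusted p = 2.37e-09). Of 19 cytosolic aminoacyl-tRNA synthetases, many of them also ATF4 targets, 0 were called in TTR cells (5 at an unadjusted p under 0.05, and 4 lower after centring) and 18 fell in parental cells, KARS1 by 1.66 ± 0.11 (adjusted p = 1.6e-09). Their median change was -0.16 in TTR cells and -1.15 in parental cells. Of 14 genes for eIF2, eIF2B, eIF2 kinases and partners, 1 fell in TTR cells (4 after centring) and 13 fell in parental cells (14 after centring). EIF2S1, the subunit of eIF2 that is phosphorylated, fell by 1.96 ± 0.13 in parental cells (adjusted p = 3.07e-09), and EIF2AK1, the haem-regulated eIF2 kinase, fell by 0.36 ± 0.09 in TTR cells (adjusted p = 0.0219) and fell by 1.53 ± 0.09 in parental cells (adjusted p = 4e-10).

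On the ER side, 1 of 19 further folding genes fell in TTR cells (4 after centring), while 1 rose and 13 fell in parental cells (0 and 17 after centring). ERO1A, the oxidase that recharges the disulfide isomerases, fell by 2.12 ± 0.17 in parental cells (adjusted p = 1.91e-08). Of 19 further genes of ER-associated degradation, 2 fell in TTR cells (4 after centring), while 1 rose and 15 fell in parental cells (0 and 17 after centring). EDEM2, a mannosidase that trims glycoproteins for degradation, fell by 0.50 ± 0.10 in TTR cells (adjusted p = 0.00733), and DERL2, of the derlin family, fell by 1.73 ± 0.15 in parental cells (adjusted p = 3.29e-08). Of 8 genes that process or resemble ATF6 and IRE1, 1 fell in TTR cells (2 after centring), while 2 rose and 5 fell in parental cells (1 and 6 after centring). MBTPS2, a protease that releases active ATF6, fell by 0.37 ± 0.09 in TTR cells (adjusted p = 0.0321) and fell by 1.73 ± 0.09 in parental cells (adjusted p = 3.31e-10).

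**Figure D5:**
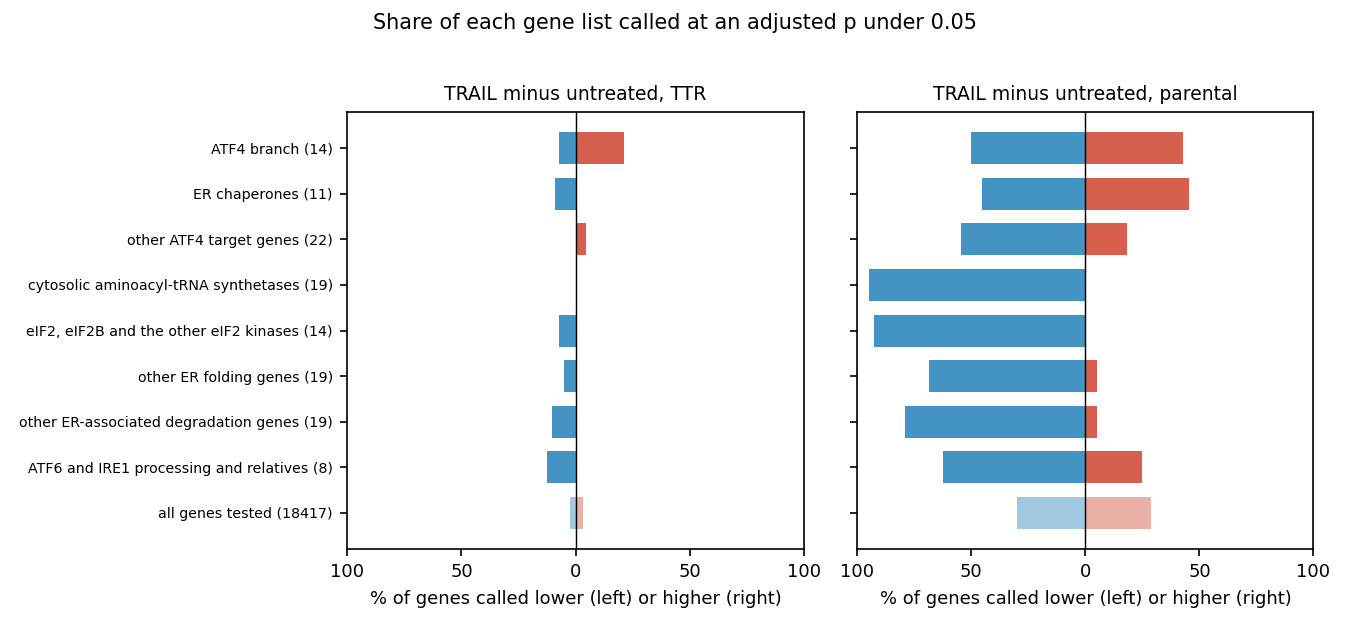
Share of each gene list called lower (left bars, blue) or higher (right bars, red) with TRAIL in TTR cells (left panel) and parental cells (right panel), with the number of genes measured in parentheses and all 18417 genes in the last row. In parental cells 18 of 19 cytosolic aminoacyl-tRNA synthetases were lower, while the ATF4 branch had 6 genes higher and 7 lower.

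Without TRAIL, 7 of the 19 aminoacyl-tRNA synthetases were lower in TTR than in parental cells and 0 were higher, where 3.47% of all genes were lower and 3.64% higher, with a median difference of -0.32. After centring 6 were lower and 0 higher, where 3% and 3.97% of all genes were. FARSA was the one with the smallest p, at -0.65 ± 0.10 (adjusted p = 0.000503). Of the 22 further ATF4 targets 4 were lower and 0 higher (2 and 0 after centring), and CTH, which makes cysteine, stood at -0.71 ± 0.11 (adjusted p = 0.000995). FKBP14, an ER prolyl isomerase, was 0.76 ± 0.10 higher in TTR cells (adjusted p = 0.000173).

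Genes that carry the promoter elements shown above did not share a direction. Of the 9 genes with either ER stress element, 0 were called in TTR cells, and in parental cells 3 rose (HSPA5, CRELD2 and SDF2L1), 4 fell (CALR, CANX, PDIA6 and HERPUD1) and 2 were not called (HSP90B1 and XBP1). Of the other 27 tested genes with either element in their window, 0 were called in TTR cells, where 5.82% of all genes were, and 7 rose and 9 fell in parental cells, where 28.9% of all genes rose and 29.9% fell. Of the 5 genes with TGATGNAA, PPP1R15B rose in TTR cells, and in parental cells CHAC1 and PPP1R15B rose while ASNS, SLC3A2 and HERPUD1 fell. Of the other 506 tested genes with that element, 8 rose and 10 fell in TTR cells, where 3.27% of all genes rose and 2.55% fell. In parental cells 92 of the 506 rose and 137 fell, where 28.9% of all genes rose and 29.9% fell. These counts are as deposited and were not made after centring, and alternatives given above called SDF2L1, HERPUD1, CHAC1 and ASNS in TTR cells. In parental cells alternatives given above removed the calls of HSPA5, CALR and HERPUD1, and called HSP90B1 and XBP1 lower.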

How the data were processed

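Total RNA of MDA-MB-231 cells was labelled with biotin and hybridised to 12 arrays. The authors deposited log2 values, made with RMA in Affymetrix Power Tools per the submitters' processing notes, with its versions, settings and genome build not given in the sources used here. Signal above background was not called. Of 33252 features 19460 named 1 gene, 19429 of which matched the RefSeq gene table (GRCh38.p14). PHGDH is also on a feature shared with another gene, which was not used. Groups came from the labels. All arrays were fitted with limma 3.58.1 in R 4.3.3 (lmFit, eBayes, 1 mean per group, two-sided, Benjamini-Hochberg over 18417 genes). With 3 arrays a group, exact permutation of single genes could not reach the threshold and was not run. The fit was tested on simulated data for TRAIL in parental cells, 50 genes per fold. It called 8% of genes changed 1.25-fold, 68% of those changed 1.5-fold and 94% of those changed 2-fold. Far fewer genes were changed there than were called in the data, and the adjusted p depends on that number. TTR cells were not simulated, so these shares do not give the power of the comparisons above.

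The 33 genes, their roles and the other lists were chosen with earlier results of these data known. Values per array are given, within each role, for the 5 genes with the smallest p in the difference between TRAIL effects and the 3 with the smallest p between untreated lines. ATF4 and HSPA5 were added to these after their values were seen. From the other pathway lists, genes with the smallest p were named. Same-numbered arrays deviated together for TRAIL in TTR cells (correlations 0.146 to 0.395) and not over 0.1 in every pair elsewhere (the lowest were 0.056, -0.033 and -0.007). For TRAIL in parental cells the same-numbered array was also the best match in every pair, with correlations of 0.056 to 0.107. The reported fit does not pair arrays in either line, so its adjusted p-values in TTR cells leave this out. The replicate number as a block is given as an alternative. Alternatives covered centring, quantile normalization, feature choice, a filter on low levels, array weights, trend and robust eBayes, the replicate block, fewer groups and leaving out each array. Plots used matplotlib 3.10.9 (Python 3.11.15).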

Additional observations from a re-analysis of the deposited data

Results flagged for a closer look

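Of the 33 genes, 24 had a TRAIL effect that differed between the lines by the test of the difference itself (TTR minus parental, log2 scale, limma with Benjamini-Hochberg adjustment), where 37.2% of all genes did. All 24 are listed since each passed that test. In the ATF4 branch the difference was 1.78 for PSAT1, 0.88 for ASNS, 0.79 for TRIB3, 0.79 for SLC7A5, 0.55 for VLDLR and 0.46 for SLC3A2, which had fallen in parental cells. It was -1.67 for DDIT4, -1.65 for DDIT3, -1.51 for PPP1R15A, -1.50 for CHAC1 and -0.73 for ATF4, which had risen there. Outside the branch it was -0.95 for PPP1R15B, which had also risen. Of the sensors, ATF6 had 0.83, EIF2AK3 0.66 and ERN1 -0.46. Of the chaperones, PDIA6 had 1.86, DNAJC3 1.67, CANX 0.93 and PDIA4 0.62, and SDF2L1 had -0.78, CRELD2 -0.72 and DNAJB9 -0.68. SEL1L had 1.63 and EDEM1 1.41. The calls of VLDLR and DNAJB9 were the most easily lost, in 10 and 9 alternatives, and that of ERN1 was lost after centring (adjusted p = 0.159).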

How the results depend on the processing

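No gene of the 33 changed sign in a called comparison under any alternative run. The number called for TRAIL in TTR cells, 6 as reported, was 11 after median centring, 12 with array weights and 11 with the replicate block and only the groups compared, and the block changed no count for TRAIL in parental cells by over 1.5 times. For untreated TTR against untreated parental cells the number, 1 as reported, was 2 without the genes of lowest mean level, 2 without the parental TRAIL arrays, 5 with array weights, 2 with trend and robust eBayes, 4 with the replicate block and 3 with the block and only the groups compared. Over all genes 13% were called for TRAIL in TTR cells after centring. The shares of all genes under the other settings just named are not given here. Leaving out 1 array gave 4 to 7 genes for TRAIL in TTR cells, 29 to 30 for TRAIL in parental cells, 1 to 3 between untreated lines, 25 to 29 between lines with TRAIL and 21 to 24 for the difference in TRAIL effect. Over all genes these were 379 to 1487, 9805 to 10917, 782 to 1553, 8772 to 10152 and 6008 to 6912, in that order. Between untreated lines the number of the 33 called was 3 without untreated parental array 1, and 2 without parental TRAIL array 1 or 3 or untreated TTR array 3. The ATF4 branch minus the chaperones for TRAIL in parental cells was 0.60 with the mean of all features and 0.70 with the median over genes in each array. That median gave 0.34 for TRAIL in TTR cells, -0.04 between untreated lines and -0.40 between lines with TRAIL. The difference of the median changes, added after the data were seen, was -0.16 for TRAIL in parental cells, -0.10 for TRAIL in TTR cells, -0.12 between untreated lines, -0.37 between lines with TRAIL and 0.03 for the difference in TRAIL effect, where the means gave 0.51, 0.15, -0.22, -0.59 and -0.37, and the cause was not tested. Values leaving out 1 array stayed at 0.47 to 0.57, 0.11 to 0.16, -0.26 to -0.16, -0.64 to -0.55 and -0.43 to -0.33 in the same order. Precision is limited by having 3 arrays a group, and a low level may be background.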
